A study of Mus musculus with 12 samples.

Results

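Tagged GZF1 and the endogenous protein were compared in mouse embryonic stem cells of the Cas9-GFP line (Cas9 below), as 2 chromatin immunoprecipitation libraries of a series of 12. One was made with anti-FLAG M2 from clone 35, in which Gzf1-Flag was overexpressed by ectopic expression; the other was made with anti-GZF1 (LSBio) from wild-type cells. Each value is an estimated read count in a 1 kb bin of the mm10 genome, divided by the mean over the 2462755 autosomal bins of its library (read density). The local log2 value of a bin is log2((density + 0.5)/(local density + 0.5)), where the local density is the median of the 10 bins on each side. Of the autosomal bins 2142887 (87.0%) were kept, with an input density of at most 3 and a local density of at least 0.5 in both libraries. An antibody was taken to see a bin at a local log2 value of 1 or more, and a bin was assigned to 1 antibody alone where the other antibody stayed below 0.5.

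Chromatin of all libraries was fixed with formaldehyde and digested with micrococcal nuclease. Of the 8 libraries in the table, 6 played no part in choosing bins: Cas9 wild-type H3K27ac, the library labelled Cas9 control with anti-GZF1, Cas9 Gzf1 knockout with anti-GZF1, Cas9 input without antibody, RGM (129xCAST) wild type with anti-GZF1 and RGM Gzf1-Flag overexpression clone 56 with anti-FLAG. The other 4 libraries of the series, among them the anti-FLAG controls without ectopic Flag, were not analysed here. Each group is 1 library and each tagged line is 1 clone, so no test was possible and every comparison is a description. Antibody, genotype and clone change together between the compared libraries and cannot be told apart.

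GZF1 is a BTB-domain zinc-finger protein that binds DNA and was described as induced by GDNF, the ligand of the RET receptor pathway. Antibodies to an epitope tag report a tagged protein wherever it sits, at the level to which it is expressed; antibodies to the protein itself report the endogenous level together with any cross-reaction. H3K27ac is an acetylation mark of active promoters and enhancers, and CpG-rich start sites of active genes form open chromatin in embryonic stem cells. Imprinted genes are expressed from 1 parental allele under the control of regions with parent-specific DNA methylation.

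Promoters of 7 genes whose start sites fell in bins of the different classes are printed first. They were chosen after their values were seen, to show how unlike single sites can be in base composition. They are RefSeq sequences of GRCm38.p6, from 250 bases before to 50 bases after the annotated start, 5′ to 3′ in the direction of the gene. Capitals mark TGCGC and TCTATA on either strand (GCGCA and TATAGA on the opposite strand), which begin and end the recognition sequence reported for GZF1. The promoters of Vat1l, Cald1, Dnajb12 and Dab1 lay in bins seen by both antibodies, those of Nr1i2 and Gm34081 in anti-FLAG only bins and that of Aptx in an anti-GZF1 only bin.
Vat1l (chr8:114205390-114205689, plus strand): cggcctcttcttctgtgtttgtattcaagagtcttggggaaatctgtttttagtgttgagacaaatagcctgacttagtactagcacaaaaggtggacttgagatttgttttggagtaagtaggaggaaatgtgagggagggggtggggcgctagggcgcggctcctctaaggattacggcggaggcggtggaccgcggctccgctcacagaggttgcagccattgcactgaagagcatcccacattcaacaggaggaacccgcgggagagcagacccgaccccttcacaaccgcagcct
Cald1 (chr6:34709194-34709493, plus strand): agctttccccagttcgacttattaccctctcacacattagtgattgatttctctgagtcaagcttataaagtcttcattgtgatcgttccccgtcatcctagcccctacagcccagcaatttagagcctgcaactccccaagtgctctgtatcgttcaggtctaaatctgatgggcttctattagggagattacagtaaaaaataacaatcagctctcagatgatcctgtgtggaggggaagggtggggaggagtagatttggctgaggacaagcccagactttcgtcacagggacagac
Dnajb12 (chr10:59879333-59879632, plus strand): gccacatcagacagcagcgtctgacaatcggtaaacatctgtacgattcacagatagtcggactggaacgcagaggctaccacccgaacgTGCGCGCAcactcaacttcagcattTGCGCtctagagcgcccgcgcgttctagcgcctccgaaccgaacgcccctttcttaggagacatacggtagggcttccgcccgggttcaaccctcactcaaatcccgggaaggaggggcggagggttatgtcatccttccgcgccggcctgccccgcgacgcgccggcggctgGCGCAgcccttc
Dab1 (chr4:103619250-103619549, plus strand): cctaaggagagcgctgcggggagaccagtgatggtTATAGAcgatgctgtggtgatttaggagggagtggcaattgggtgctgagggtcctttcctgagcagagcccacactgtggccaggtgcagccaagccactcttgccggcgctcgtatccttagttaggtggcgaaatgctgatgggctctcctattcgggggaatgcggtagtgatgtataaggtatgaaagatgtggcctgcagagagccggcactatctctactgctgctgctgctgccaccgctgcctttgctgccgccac
Nr1i2 (chr16:38294775-38295074, minus strand): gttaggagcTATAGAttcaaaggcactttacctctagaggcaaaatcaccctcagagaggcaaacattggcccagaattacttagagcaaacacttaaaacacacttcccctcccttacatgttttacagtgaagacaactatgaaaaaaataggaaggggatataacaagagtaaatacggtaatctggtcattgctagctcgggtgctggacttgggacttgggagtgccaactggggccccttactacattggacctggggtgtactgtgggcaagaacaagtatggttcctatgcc
Gm34081 (chr12:109526220-109526519, minus strand): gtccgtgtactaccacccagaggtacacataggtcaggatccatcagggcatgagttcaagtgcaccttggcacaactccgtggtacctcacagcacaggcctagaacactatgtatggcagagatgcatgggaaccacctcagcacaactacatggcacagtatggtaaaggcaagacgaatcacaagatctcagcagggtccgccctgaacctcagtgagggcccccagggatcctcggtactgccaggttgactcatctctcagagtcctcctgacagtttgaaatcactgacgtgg
Aptx (chr4:40703145-40703444, minus strand): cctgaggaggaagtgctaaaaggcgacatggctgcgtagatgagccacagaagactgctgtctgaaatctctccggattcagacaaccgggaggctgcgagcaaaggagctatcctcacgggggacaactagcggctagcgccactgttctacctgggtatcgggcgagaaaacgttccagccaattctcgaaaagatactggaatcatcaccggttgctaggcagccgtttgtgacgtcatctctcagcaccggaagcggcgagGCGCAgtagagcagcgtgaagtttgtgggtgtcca
Vat1l had the highest anti-FLAG and the highest anti-GZF1 local log2 value of all bins kept, yet its promoter held neither TGCGC nor TCTATA. The Dnajb12 promoter held 4 TGCGC matches and 33 CpG, the Cald1 promoter 0 matches of either motif and 5 CpG. Single TCTATA matches stood in the Dab1 and Nr1i2 promoters, which had 12 and 2 CpG. Over all 23505 RefSeq promoters in kept bins, TGCGC occurred in 25.1% and TCTATA in 7.79%. Over the 806 promoters in bins seen by both antibodies these shares were 63.3% and 1.86%. Those promoters had a median of 26 CpG and a lower quartile of 19. The printed promoters of Vat1l, Cald1 and Dab1, at 14, 5 and 12 CpG, lay below that quartile and are not typical of them. A match is a match of letters in this window alone.

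Anti-FLAG saw 2268 bins (0.106% of the bins kept) and anti-GZF1 saw 5543 bins (0.259%). Both antibodies saw 1115 bins (0.052%), which merged into 1057 sites and made up 49.2% of the anti-FLAG bins and 20.1% of the anti-GZF1 bins. Anti-FLAG alone saw 517 bins (0.0241%) in 457 sites, and anti-GZF1 alone saw 979 bins (0.0457%) in 966 sites. Some of these bins lay beside signal of the other antibody. With that antibody below 0.5 in both neighbouring bins too, 350 anti-FLAG only and 600 anti-GZF1 only bins remained. The remaining bins were intermediate: 636 anti-FLAG bins (0.0297%) had an anti-GZF1 value between 0.5 and 1, and 3449 anti-GZF1 bins (0.161%) had such an anti-FLAG value. Intermediate bins were thus 62.2% of everything anti-GZF1 saw. The counts depend on the settings: with a pseudocount of 0.25 both antibodies saw 2219 bins, and with a pseudocount of 1 they saw 239. The class a bin falls in was set by these same values, which therefore support nothing about the classes.

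**Figure D1:**
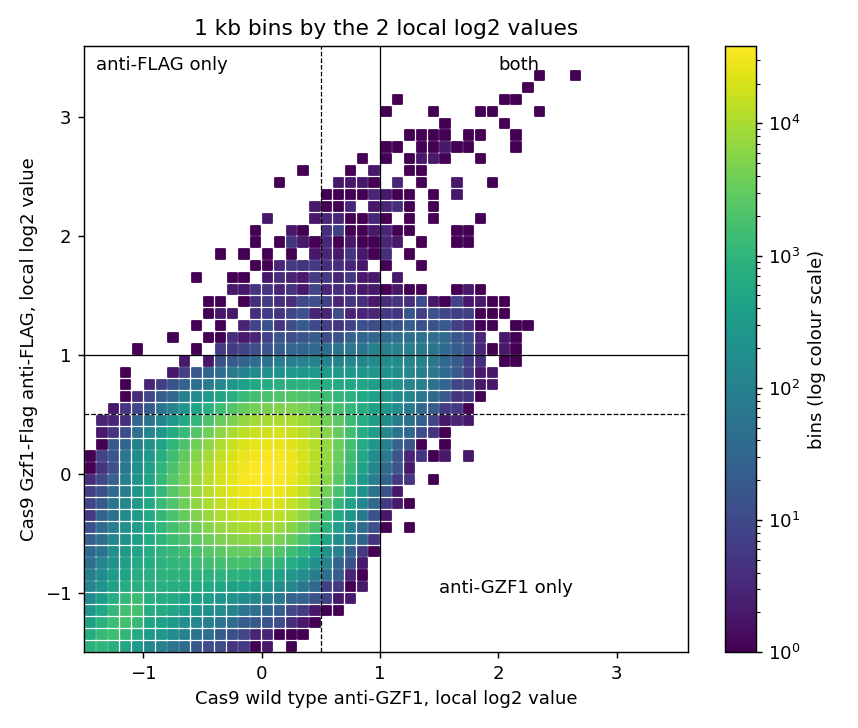
Kept 1 kb bins by the local log2 value with anti-GZF1 (x axis) and anti-FLAG (y axis), colour giving the number of bins on a log scale; solid lines mark 1 and dashed lines 0.5. Anti-FLAG reached 3.36 and anti-GZF1 2.70, both at the Vat1l bin, and most bins seen by an antibody lay close to the line at 1.

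Enrichment was modest in each class. Shared bins had a median of 2.69 times the local density with anti-FLAG and 3.10 times with anti-GZF1. In anti-FLAG only bins these medians were 2.94 and 1.26, and in anti-GZF1 only bins 1.40 and 2.71. The exact 95% binomial interval of the ratio of both local enrichments held 1 in 814 of the 1115 shared bins. It held 1 in 4 of the 517 anti-FLAG only bins and in 2 of the 979 anti-GZF1 only bins. The class rule used these same counts, so the low numbers in the single-antibody classes follow from the choice of bins. Intervals measure counting error alone, and reads of 1 molecule can be counted more than once. Bins lay close to the threshold on both sides. The shared bin with the smallest lower value, chr13:56252001-56253000, held 84.95 anti-FLAG and 78.80 anti-GZF1 reads, and the nearest bin outside, chr10:42502001-42503000, held 94.20 and 118.30. In bulk chromatin, binding in more cells and more binding per cell cannot be told apart.

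Depth was 70.0 M reads for Cas9 anti-FLAG and 60.6 M reads for Cas9 anti-GZF1, a mean of 27.2 and 23.6 reads per bin. The other 6 libraries held 10.1 to 94.2 M reads, with the input lowest at a mean of 3.93 reads per bin and RGM anti-GZF1 next at 8.61. H3K27ac density at the start sites of 9 embryonic stem cell markers had a median of 3.18 (range 1.42 to 4.19), against 1.29 for 4 fibroblast feeder markers, 1.5 for 7 markers of differentiated tissues and 1.89 for all genes with a start site.

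Sites shared by both antibodies were mostly gene start sites with active chromatin. A RefSeq start lay within 1 kb of 733 of 1074 shared bins (68.2%), against 3.14% of all kept bins on the chromosomes of the start-site table, and 90.6% of shared bins overlapped a gene against 51.9% of all kept bins. Promoters in shared bins had a median of 26 CpG, against 6 for all promoters. H3K27ac had a median local log2 value of 1.11 in shared bins, and 60.4% of them reached 1 with H3K27ac (0.309% of all bins kept). The other Cas9 libraries were raised there too: the knockout had a median of 0.52, with 5.92% of shared bins at 1 or more (0.0305% of all bins kept), the library labelled control 0.53 with 5.74% (0.0251%), and the input 0.62 with 19.1% (5.72%). The part of open chromatin in the shared signal was not tested.

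Both RGM libraries also saw most shared bins. RGM anti-FLAG had a median of 1.31 there and reached 1 in 83.3% of them, against 0.289% of all kept bins. RGM anti-GZF1, the shallower library, had a median of 1.81 and reached 1 in 91.9%, against 1.93% of all kept bins. With each library set at 1, 886 of the 1115 shared bins (79.5%) were seen by both antibodies in RGM too.

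Bins seen by anti-FLAG alone lay at start sites less often than shared bins. Of 501 bins 52 (10.4%) had a start site within 1 kb, above the 3.14% of all kept bins. A gene overlapped 55.3% of the anti-FLAG only bins (51.9% of all kept bins), and 33.5% had no gene within 5 kb (38.7%). Their median local log2 values were 0.14 with H3K27ac, 0.08 for the knockout, 0.05 for the control and 0.04 for the input. In that order 1.55%, 0.193%, 0% and 6.96% of them were at 1 or more, against 0.309%, 0.0305%, 0.0251% and 5.72% of all kept bins. RGM anti-FLAG had a median of 0.73 in the anti-FLAG only bins and reached 1 in 26.7% (0.289% of all kept bins). RGM anti-GZF1 had 0.35 and 7.93% (1.93% of all kept bins). In RGM the anti-FLAG value was above the anti-GZF1 value in 391 of the 517 (75.6%), against 48.5% of all kept bins.

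Anti-GZF1 only bins stood between these patterns. A start site lay within 1 kb of 423 of 932 (45.4%), and 72.7% overlapped a gene, against 3.14% and 51.9% of all kept bins. Promoters in these bins had a median of 24 CpG, close to those of shared bins. H3K27ac had a median of 0.63, the input 0.42, the control 0.24 and the knockout 0.22. In that order 15.1%, 14.4%, 0.409% and 0.613% of bins reached 1, against 0.309%, 5.72%, 0.0251% and 0.0305% of all kept bins. RGM anti-GZF1 had a median of 1.05 in the anti-GZF1 only bins and reached 1 in 52.2% (1.93% of all kept bins). RGM anti-FLAG had 0.67 and reached 1 in 20.6% (0.289% of all kept bins). Anti-FLAG was the higher antibody in RGM in 236 of the 979 bins (24.1%), and in 168 of the 1115 shared bins (15.1%).

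**Figure D2:**
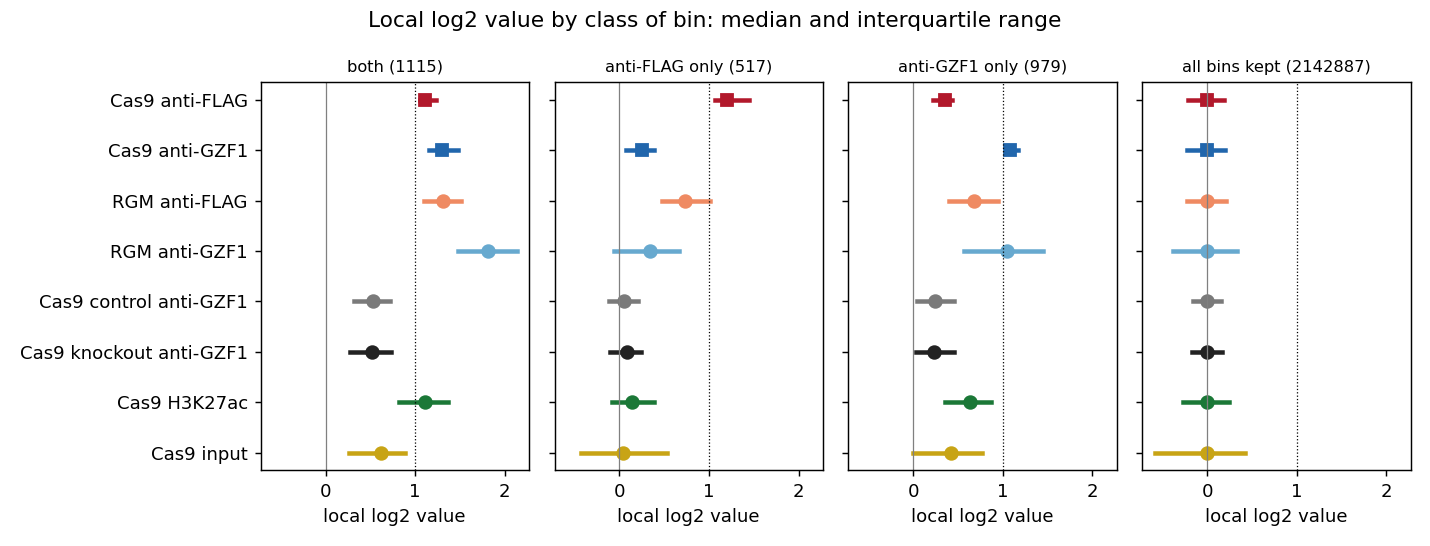
Local log2 value (x axis) in all 8 libraries for the 3 classes and for all bins kept; points are medians over bins, bars the interquartile range, squares the 2 libraries that set the classes and circles the other 6. H3K27ac medians were 1.11, 0.14 and 0.63 in shared, anti-FLAG only and anti-GZF1 only bins, and the knockout medians 0.52, 0.08 and 0.22.

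Ranking by strength separated the antibodies further, in steps chosen after the values were seen. From the anti-FLAG step at 1 to 1.25 (1607 bins) to 136 bins at 2 or more (0.00635% of bins kept), the share with a start site within 1 kb went from 53.2% to 20.9%. Over the same steps the H3K27ac median went from 0.88 to 0.27, the knockout median from 0.40 to 0.12 and the control median from 0.41 to 0.18. Ranked by anti-GZF1, the share near a start site was 58.8% at 1 to 1.25 (3693 bins), 72.1% at 1.25 to 1.5, 72.5% at 1.5 to 2 and 70.0% in 21 bins at 2 or more. Its H3K27ac medians at these steps were 0.81, 1.04, 1.17 and 1.05, and its knockout medians 0.36, 0.43, 0.53 and 0.46. The control medians there were 0.38, 0.44, 0.53 and 0.66. Below these steps, at anti-FLAG values of 0.75 to 1 (9186 bins), the share near a start site was 30.7%. Anti-FLAG bins at 2 or more were thus mostly away from start sites, though their 20.9% was above the 3.14% of all kept bins. Their H3K27ac median of 0.27 was below that at 1 to 1.25 and above the 0 of all kept bins. High anti-GZF1 values were mostly at start sites with H3K27ac and some knockout and control signal.

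**Figure D3:**
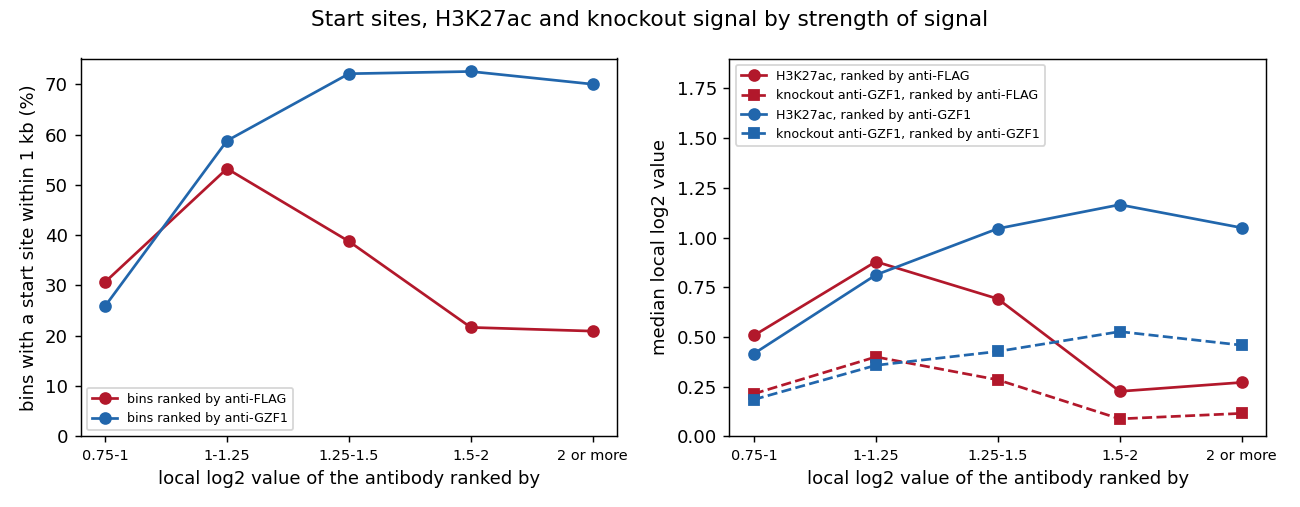
Share of bins with a RefSeq start within 1 kb (left, %) and median local log2 value of H3K27ac and of the knockout anti-GZF1 library (right), in steps of the local log2 value of the antibody that ranks the bins (x axis). Start-site shares for anti-FLAG peak at 53.2% and end at 20.9%, while those for anti-GZF1 end at 70.0%.

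At a threshold of 1.5 anti-FLAG saw 320 bins (0.0149%), anti-GZF1 497 (0.0232%) and both antibodies 35 (0.00163%). In these 35 bins the median was 2.58 with RGM anti-FLAG, 0.86 with H3K27ac and 0.38 in the knockout. There 0 of the 35 reached 1 in the knockout, against 0.0305% of all bins kept. The library labelled control had a median of 0.41 and reached 1 in 1 of the 35, against 0.0251% of all bins kept. Few bins of the genome reach 1 in either library, so the 0 does not set these bins apart. The 136 strongest anti-FLAG bins were also seen by the tag in the other line. RGM anti-FLAG reached 1 in all 136 of them, with a median of 2.03, against 0.289% of all bins kept. Cas9 anti-GZF1 had a median of 1.04 in them, with 73 bins at 1 or more (0.259% of bins kept) and 12 below 0.5, and RGM anti-GZF1 1.13, with 84 at 1 or more. H3K27ac reached 1 in 12 of the 136, the input in 11, the control in 1 and the knockout in 0. Over all bins kept these libraries reached 1 in 0.309%, 5.72%, 0.0251% and 0.0305%. Across these bins the anti-FLAG and Cas9 anti-GZF1 values had a Spearman rho of 0.63 (n = 136), where it was 0.19 over the 1115 shared bins and 0.30 over all bins kept. The bins were chosen on these values, share their library's depth and were not adjusted for base composition.

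The letters of the promoters differed between steps, in no single direction over the anti-FLAG steps. The 21 promoters in bins at an anti-FLAG value of 2 or more had a median of 12 CpG. Of them 8 held TGCGC (38.1%) and 3 TCTATA (14.3%), where all promoters had 6 CpG, 25.1% and 7.79%. The 831 promoters at anti-FLAG values of 1 to 1.25 had a median of 25 CpG, with TGCGC in 62.6% and TCTATA in 2.29%. The 22512 promoters at anti-FLAG values below 1 had a median of 5 CpG, with 23.4% and 8.02%. Over the anti-GZF1 steps from 1 to 1.25 up to 2 or more, TGCGC rose through 58.0%, 62.4%, 66.9% and 84.6%. TCTATA fell through 2.95%, 2.63%, 1.99% and 0%, and the median CpG was 23, 27, 30 and 29. The last anti-GZF1 step held 13 promoters. TGCGC holds a CpG, its shares were not matched for CpG content, and 3 promoters with TCTATA, or 13 in a step, are few.

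**Figure D4:**
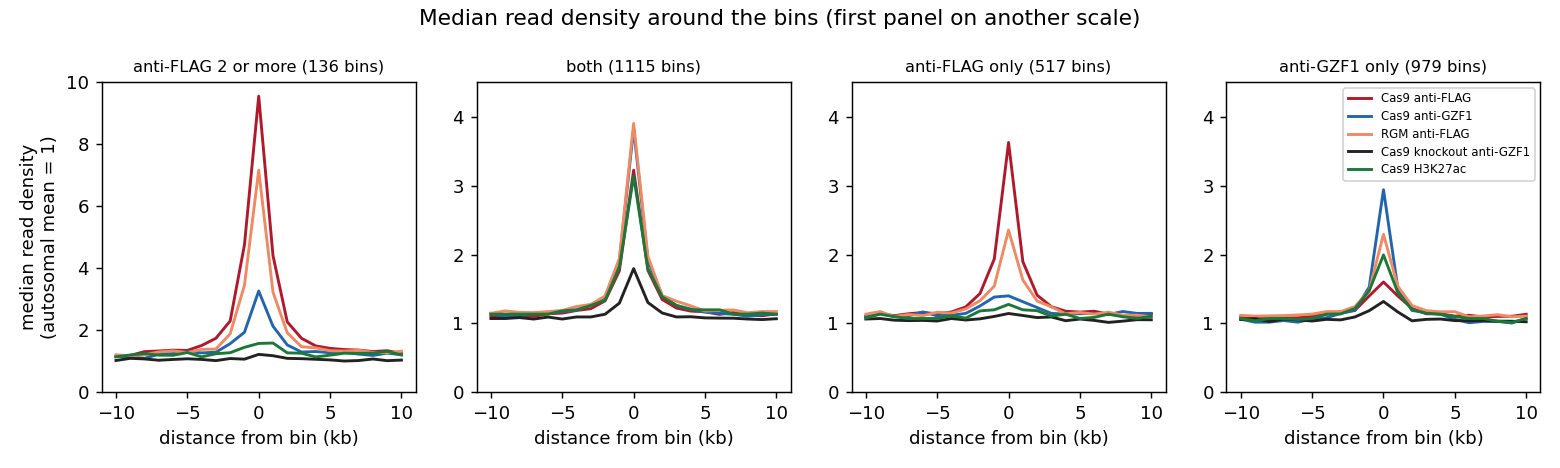
Median read density (autosomal mean set to 1, y axis) by distance from the bin in kb (x axis) in 5 libraries, for the 136 bins at an anti-FLAG value of 2 or more and for the 3 classes; the first panel has a longer y axis. At the centre of the 136 bins anti-FLAG stood at 9.55 and RGM anti-FLAG at 7.17, while Cas9 anti-GZF1 stood at 3.27 and the knockout at 1.22; in shared bins anti-FLAG stood at 3.22 and Cas9 anti-GZF1 at 3.83.

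The 15 shared sites in which the lower of both values was highest are described next. They held 108.95 to 563.55 anti-FLAG reads and 91.45 to 221.6 anti-GZF1 reads, with local log2 values of 1.91 to 3.36 and 1.79 to 2.70. RGM anti-FLAG was at 1 or more in 15 of 15 (1.20 to 3.54), as was RGM anti-GZF1 (1.15 to 3.22). The knockout was at 1 or more in 0 of 15 (median 0.31, range −0.49 to 0.85). Of all kept bins 0.289%, 1.93% and 0.0305% reached 1 in these libraries, in that order. The library labelled control stayed near the knockout and not near wild type, with a median of 0.53 and 1 of 15 bins at 1 or more. By position 5 bins held a start site, 8 lay inside a gene, 1 within 5 kb of a gene and 1 had no gene within 5 kb. The start-site table has no entries on chromosome 18, so the Gnal bin there could only be called inside a gene.

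Vat1l, which encodes a protein related to the synaptic vesicle protein VAT1, carried the strongest of them at chr8:114205001-114206000, the bin of its start site. It held 493.8 anti-FLAG reads, a density of 18.2 (95% exact Poisson interval 16.6 to 19.8), and 208.6 anti-GZF1 reads, a density of 8.85 (7.69 to 10.1). The density ratio of anti-FLAG to anti-GZF1 was 2.05 (1.74 to 2.42, exact binomial). The other libraries held 442.15 reads (RGM anti-FLAG), 102.40 (RGM anti-GZF1), 70.25 (control), 52.40 (knockout), 39.45 (H3K27ac) and 10 (input). Densities were above 8 in the wild-type anti-GZF1 and Gzf1-Flag libraries of both lines, 1.96 in the library labelled control and 1.59 in the knockout. Pdzrn3, which encodes a ubiquitin ligase with PDZ domains, had its site at chr6:101378001-101379000, within 5 kb of the gene, with 508.0 and 199.2 reads and local log2 values of 3.35 and 2.36; the knockout value was 0.18.

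Start sites of Slc10a7 (a solute carrier), Cald1 (caldesmon, an actin-binding protein), Lurap1l and Dnajb12 (a co-chaperone of the endoplasmic reticulum) were the other bins called promoter sites. Dnajb12, at chr10:59879001-59880000, had values of 3.03 and 2.35, the highest knockout value of the 15 (0.85) and an H3K27ac value of 1.99. Cald1, at chr6:34709001-34710000, had 2.94 and 2.05 with a knockout value of −0.39. Slc10a7, at chr8:78509001-78510000, had 2.76 and 2.16, and Lurap1l, at chr4:80910001-80911000, 2.69 and 1.86 with an H3K27ac value of 0.08. Promoters among the strongest shared sites thus spanned H3K27ac values from near 0 to near 2.

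Inside genes lay the sites of Gnal (the olfactory G protein alpha subunit; 3.21 and 2.24), Adra1a (the alpha-1A adrenergic receptor; 3.15 and 2.14), Nav2 (a neuron navigator protein; 3.19 and 2.09), Wdfy1 (2.47 and 1.93), Slc35d2 (a nucleotide sugar transporter; 2.89 and 1.85) and Ptk2b (a tyrosine kinase of the focal adhesion kinase family; 3.01 and 1.82), giving the anti-FLAG value first. Their knockout values ran from −0.03 at Adra1a to 0.55 at Wdfy1. Gm33257 had 2.85 and 2.13, and the site at chr13:111509001-111510000, with no gene within 5 kb, 3.09 and 1.92. In the density ratio anti-FLAG was 1.64 to 3.30 times anti-GZF1 at 14 of the 15 sites. The exception was Gm7827 at chr8:71132001-71133000, with a ratio of 0.94 (0.71 to 1.24) from 108.95 and 100.95 reads, where the control held 137.2 and the knockout 169.4 reads.

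**Figure D5:**
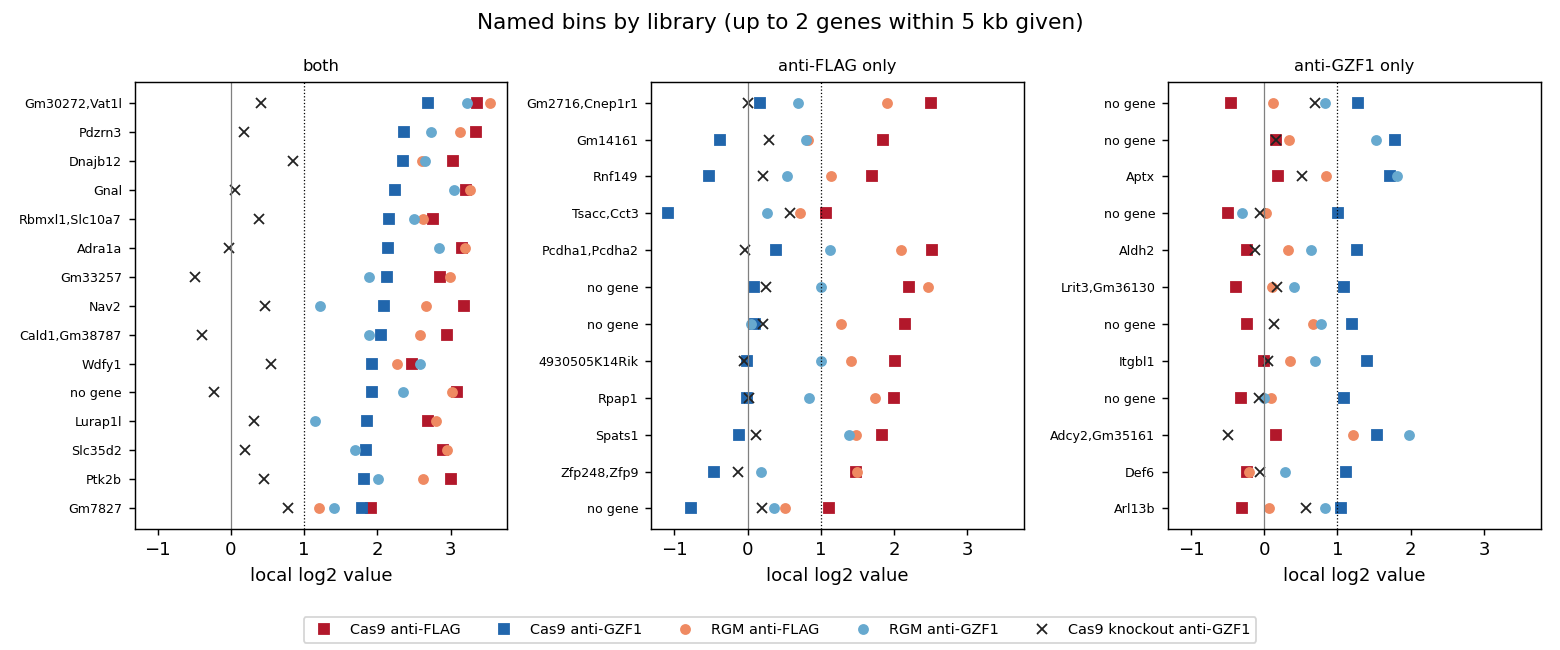
Local log2 value (x axis) of the 15 shared, 12 anti-FLAG only and 12 anti-GZF1 only named bins in 5 libraries; each line is 1 bin, labelled with the genes within 5 kb, and the dotted line marks 1. Black crosses, the knockout, lie left of 1 for all 39 bins, and RGM anti-FLAG lies at 1 or more in 15 of 15, 9 of 12 and 1 of 12.

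Among anti-FLAG only bins, the 12 with the largest difference held 73.3 to 385.6 anti-FLAG reads and 7 to 53.9 anti-GZF1 reads. None was called a start site: 7 lay inside a gene, 2 within 5 kb of one and 3 had none within 5 kb. The start-site table has no entries on chromosome 18, so the Pcdha1 bin there could only be called inside a gene. RGM anti-FLAG was at 1 or more in 9 of 12 (0.289% of all kept bins) and above 0.5 in the others. RGM anti-GZF1 was at 1 or more in 3 of 12 (1.93%), H3K27ac in 0 of 12 (0.309%) and the knockout in 0 of 12 (0.0305%). Most of these bins, chosen on Cas9 libraries, were thus also seen by the tag in RGM. The counts of 0 with H3K27ac and in the knockout do not set them apart from the genome, where few bins reach 1.

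The largest difference was at chr8:88115001-88116000, inside the non-coding gene Gm2716 and within 5 kb of Cnep1r1, which encodes a regulatory subunit of a nuclear envelope phosphatase. It held 385.6 anti-FLAG and 53.9 anti-GZF1 reads, local log2 values of 2.5 and 0.17 and a density ratio of 6.20 (4.65 to 8.40). The same bin held 195.35 reads with RGM anti-FLAG, 22.9 with RGM anti-GZF1, 32.2 in the control, 57.0 in the knockout, 39.3 with H3K27ac and 7 in the input. Both anti-FLAG libraries were high there and every other library was below 3 times its genome mean.

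Pcdha1, the gene of a clustered protocadherin (a neuronal adhesion protein), carried the anti-FLAG only bin with the highest anti-FLAG value, 2.52 against 0.38, from 313.95 and 39.35 reads at chr18:36938001-36939000; RGM anti-FLAG was at 2.10. Further bins inside genes were at Rpap1 (an RNA polymerase II associated protein; 2.0 and −0.01), Spats1 (1.83 and −0.11), Defb21 (a beta-defensin; 1.86 and −0.37), Rnf149 (a ubiquitin ligase; 1.69 and −0.52) and Tsacc, next to Cct3 (1.07 and −1.08). Bins beside genes were at 4930505K14Rik (2.01 and −0.01) and between Zfp248 and Zfp9, both zinc-finger genes (1.48 and −0.46). The bins at chr4:141226001-141227000 (2.20 and 0.09), chr2:75956001-75957000 (2.15 and 0.10) and chr4:16975001-16976000 (1.12 and −0.77) had no gene within 5 kb. The last of these rested on 73.3 anti-FLAG reads, 7 anti-GZF1 reads and 0 input reads.

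Among anti-GZF1 only bins, the 12 with the largest difference held 39.4 to 163.35 anti-GZF1 reads and 6.45 to 63.5 anti-FLAG reads. RGM anti-GZF1 was at 1 or more in 3 of 12 (1.93% of all kept bins), RGM anti-FLAG in 1 of 12 (0.289%) and the knockout in 0 of 12 (0.0305%). Their anti-GZF1 values were 1.00 to 1.79. By position 2 held a start site, 4 lay inside a gene, 1 within 5 kb of a gene and 5 had none within 5 kb.

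Aptx, which encodes the DNA repair protein aprataxin, had the bin of its start site (chr4:40703001-40704000) among them, with 163.35 anti-GZF1 and 63.5 anti-FLAG reads and values of 1.72 and 0.19. RGM gave 1.82 with anti-GZF1 and 0.85 with anti-FLAG, and the control 0.86, the knockout 0.52 and H3K27ac 0.42. At chr18:76694001-76695000, with no gene within 5 kb, anti-GZF1 held 94.75 reads (1.79) and anti-FLAG 24.45 (0.16), RGM anti-GZF1 was at 1.52, and the control, knockout and H3K27ac were at 0.17, 0.16 and 0.05. Adcy2, an adenylyl cyclase gene, had 1.54 and 0.16 at its start site, with RGM values of 1.98 with anti-GZF1 and 1.21 with anti-FLAG. These 3 bins were the ones that RGM anti-GZF1 also saw.

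The other 9 did not reach 1 with RGM anti-GZF1, the shallower library. They lay at Aldh2 (mitochondrial aldehyde dehydrogenase; 1.26 with anti-GZF1 and −0.23 with anti-FLAG), Itgbl1 (1.40 and −0.0031), Def6 (a guanine nucleotide exchange factor; 1.12 and −0.24), Lrit3 (1.09 and −0.39) and Arl13b (a GTPase of cilia; 1.05 and −0.30), and at 4 bins with no gene within 5 kb. Of those 4, the bin with the largest difference of all, chr8:33455001-33456000, held 52.15 anti-GZF1 and 6.45 anti-FLAG reads, but also 66.95 reads in the knockout (0.69) and 52.15 in the control (0.46).

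At the imprinted Dlk1-Meg3 locus the antibodies differed in strength. Of the 78 bins between these genes, which hold the control region of the Dlk1-Dio3 imprinted cluster, anti-FLAG saw 3 and anti-GZF1 1. At chr12:109527001-109528000, inside the non-coding gene Gm34081, anti-FLAG held 368.5 reads, 12.2 times the local density and rank 6 of all bins kept. Anti-GZF1 held 55.0 reads there, 3.06 times the local density and rank 2730. The local log2 values were 3.12 and 1.16 in Cas9 and 3.01 and 1.30 in RGM, with 0.20 in the control, −0.81 in the knockout (5 reads) and 0.35 with H3K27ac. The Cas9 anti-GZF1 value was below 1 with a pseudocount of 1 (0.92) and with 5 bins a side (0.93).
The bin before it, which holds the Gm34081 promoter printed above, had 134.6 and 31 reads (1.76 and 0.49), and the bin after it 116.3 and 24 reads (1.57 and 0.26). Both neighbours were thus anti-FLAG only bins beside a shared one. Meg3, the maternally expressed non-coding RNA gene, had an anti-GZF1 only bin at chr12:109546001-109547000 (0.42 with anti-FLAG and 1.16 with anti-GZF1), where H3K27ac was 0.07.

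Of 45 genes listed as imprinted 22 had a bin seen by either antibody within 5 kb, against 27.7% of 19796 protein-coding genes. Shared bins were near 4 of them (5.85% of protein-coding genes), anti-FLAG only bins near 3 (1.48%) and anti-GZF1 only bins near 6 (4.09%). These counts of genes repeat bins: Commd1 and Zrsr1 have the same shared bin, and Blcap and Nnat the same anti-FLAG only bin. Listed genes had a median of 40 kept bins in reach and protein-coding genes 26, so these shares are not matched for length. The list was chosen with earlier results of these data known.
The start site shared by Zrsr1 and Commd1 (chr11:22972001-22973000), where the paternally expressed Zrsr1 lies within Commd1, had 307.45 and 106.0 reads and values of 2.31 with anti-FLAG and 1.01 with anti-GZF1. The anti-GZF1 value was below 1 with a pseudocount of 1 (0.88), with 5 bins a side (0.96) and with 25 (0.99). Grb10, which encodes an adaptor of growth factor receptors, had 1.28 and 1.18 inside the gene, and Herc3 1.15 and 1.88. With a pseudocount of 1 the anti-GZF1 value of Grb10 was 0.99 and the anti-FLAG value of Herc3 0.95. Ndn was higher with anti-GZF1, at 0.82 and 1.45 with a knockout value of 0.65 and a control value of 0.44. So were Zfp787 (0.73 and 1.30) and the start of Blcap, the host gene of Nnat (0.65 and 1.24). Anti-FLAG was the higher antibody at the Dlk1-Meg3 and Zrsr1-Commd1 bins, and anti-GZF1 at those of Herc3, Ndn, Zfp787 and the Blcap start. A second bin near Blcap and Nnat (chr2:157560001-157561000) was seen by anti-FLAG alone (1.01 and 0.27), as was one near Rasgrf1 (1.18 and 0.32), and one near Mest was at 1.05 and 0.57. The tag in RGM did not see these bins: RGM anti-FLAG was at 0.50, 0.49 and −0.23, in that order.

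In the GDNF-RET pathway 4 of 24 genes (16.7%) had a bin seen by either antibody, against 27.7% of protein-coding genes. Of these 4, only Gfra1 had a shared bin (4.17% against 5.85%). With 24 genes in the list, such differences rest on a few genes. Gfra1, which encodes the GDNF co-receptor, had 82.55 and 68.4 reads and values of 1.19 and 1.13, with 0.03 in the knockout and 0.03 in the control. It was no longer shared with a pseudocount of 1 (0.98 and 0.92) or with 5 bins a side (anti-GZF1 0.93). At Ret, the receptor gene, the highest anti-GZF1 bin was at 0.92 and 1.22, with a knockout value of 0.82 and a control value of 0.47. Gzf1 itself had 0.98 and 1.17 at its start site, with 0.39 in the knockout, 0.64 in the control and 1.15 with H3K27ac. Dok5, an adaptor of the receptor, had a bin at 1.03 and 0.53.

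Among 16 autosomal genes of imprint maintenance and DNA methylation, 3 had a seen bin (18.8%). Smchd1, a chromatin protein of X inactivation, had 1.03 with anti-FLAG (0.88 with a pseudocount of 1 and 0.95 with 5 bins a side) and 1.35 with anti-GZF1 at its start site, Uhrf1 had 0.91 and 1.34 in a bin inside the neighbouring Kdm4b, and Dnmt3a, a de novo DNA methyltransferase gene, had 0.49 and 1.31. Among 17 pluripotency genes 2 had one (11.8%), both through anti-FLAG. Of protein-coding genes 27.7% had a seen bin. Both lists are short, so a difference from that share rests on a few genes. Pluripotency genes had a median of 16 kept bins in reach, imprint and methylation genes 46 and protein-coding genes 26. These shares are thus not matched for length. Sall4, a zinc-finger transcription factor gene, had an anti-FLAG only bin inside the gene (chr2:168763001-168764000), with 224.85 and 70.0 reads. Its values were 1.75 and 0.28, and 1.18 with RGM anti-FLAG. H3K27ac was at −0.12 there, the knockout at −0.40 and the control at 0.43. Zfp42 had 1.39 and 0.61, with 0.73 with RGM anti-FLAG and 0.40 in the knockout.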

How the data were processed

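Per the submitters' processing notes, reads were handled with cutadapt, Bowtie2 2.5.4, SAMtools and deepTools on mm10; whether duplicate or poorly mapped reads were removed is not given in the sources used here. The authors deposited expected counts, that is estimated read counts per 1 kb bin not scaled to depth, in which a read that crosses a bin edge is split between bins, so values need not be whole. Here each library was divided by its autosomal mean, and local log2 values were computed with a pseudocount of 0.5 and the median of 10 bins on each side. Of 2462755 autosomal bins, 65277 were left out for an input density above 3 and 254761 for a local density below 0.5 in either library. Seen bins at most 1 kb apart were merged. Depth was 10.1 to 94.2 M reads per library.

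Named bins were the 15 merged sites with the highest lower value of both antibodies, the 12 bins of each single-antibody class with the largest difference and 30 or more reads in the antibody that sees them, the highest anti-FLAG bin between Dlk1 and Meg3, and up to 8 members per gene list with a seen bin. Only the members of most weight are given with values. The anti-FLAG bins near Blcap, Rasgrf1 and Mest, the Meg3 bin and the printed promoters fall outside this rule and were chosen after their values were seen. Members, thresholds and lists were chosen with earlier results of these data known; the strength steps and the alternative that needs a knockout value below 0.5 were chosen after these values were seen. Start sites come from a RefSeq promoter table of GRCm38.p6 and gene spans from its gene table, which do not split genes into exons and introns. The promoter table has no entries on chromosome 18. Start-site shares leave that chromosome out, and named bins on it could not be called start sites. Intervals are 95% exact Poisson (densities) and exact binomial, Clopper-Pearson (ratios), on counts rounded to whole reads. The alternatives were other pseudocounts, thresholds, numbers of flanking bins, input filters, scaling to the autosomal median and stricter or looser rules for the classes. The calculation was tested on simulated data. Python 3.11.15, numpy 2.4.6, pandas 2.3.3, scipy 1.17.1 and matplotlib 3.10.9 were used.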

Additional observations from a re-analysis of the deposited data

Results flagged for a closer look

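Among the bins named for their class, the order of the antibodies was opposite in Cas9 and RGM at 2, by at least 0.25 in each line. Bins named from the gene lists reversed too. Dok5 had 1.03 with anti-FLAG and 0.53 with anti-GZF1 in Cas9, and −0.37 and 0.67 in RGM. With smaller differences in Cas9, Gfra1 had 1.19 and 1.13 against 0.62 and 1.52 in RGM. Grb10 had 1.28 and 1.18 against 1.26 and 1.68. In the shared bin inside Wdfy1 (chr1:79761001-79762000) the anti-FLAG value was above the anti-GZF1 value by 0.54 in Cas9 (2.47 and 1.93), and the difference was −0.31 in RGM (2.27 and 2.58). In the anti-GZF1 only bin at chr2:19331001-19332000, with no gene within 5 kb, the difference was −1.49 in Cas9 (−0.49 and 1.00) and 0.32 in RGM (0.02 and −0.30). Each value comes from 1 library, and the difference between the lines was not tested.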

How the results depend on the processing

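Counts are given in the order seen by both, by anti-FLAG only, by anti-GZF1 only, by anti-FLAG and by anti-GZF1 (1115, 517, 979, 2268 and 5543 as reported). They were 2219, 1385, 3018, 4941 and 10242 with a pseudocount of 0.25, and 239, 309, 344, 778 and 2404 with a pseudocount of 1. At a threshold of 1.5 they were 35, 103, 13, 320 and 497, and at 2 they were 9, 12, 0, 136 and 21. Without the input filter bins seen by both, by anti-FLAG and by anti-GZF1 were 2394, 3772 and 9728. With the other antibody required below 0 the single-antibody classes held 89 and 70 bins. With it below 0.5 in both neighbouring bins too, anti-FLAG only held 350 and anti-GZF1 only 600. Required to be below 0.5 in the knockout, 535 shared bins remained.

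For RGM anti-FLAG, knockout and H3K27ac, shared bins gave 1.34, 0.55 and 1.16 with a pseudocount of 0.25, knockout and H3K27ac 0.42 and 0.97 with a pseudocount of 1, all 3 libraries 2.58, 0.38 and 0.86 at a threshold of 1.5 and 1.26, 0.49 and 1.05 with 5 bins a side, and H3K27ac 1.14 with 25 bins a side. Anti-FLAG only bins gave 0.49 (RGM anti-FLAG) and 0.27 (H3K27ac) with a pseudocount of 0.25, 0.034 (knockout) and 0.10 (H3K27ac) with a pseudocount of 1, 1.19 (RGM anti-FLAG) and 0.046 (knockout) at 1.5, and 0.67 (RGM anti-FLAG) with 5 bins a side. Anti-GZF1 only bins gave 0.44, 0.16 and 0.44 with a pseudocount of 0.25, 0.83, 0.27 and 0.71 with a pseudocount of 1, 0.86, 0.56 and 0.75 at 1.5, and 0.71, 0.26 and 0.66 with 25 bins a side, and H3K27ac 0.59 with 5 bins a side. The input median of anti-GZF1 only bins turned to −0.088 at 1.5, where 13 bins are left. The cause of these shifts was not tested.

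The named bins gave 114 values, many of them below 1 at the reported settings and so unable to drop. With a pseudocount of 1, 18 dropped below 1, with 5 bins a side 7 and with 25 bins a side 5. Values that rose to 1 or more were 3 with a pseudocount of 0.25 and 2 with 25 bins a side. A bin listed for more than 1 gene was counted for each. No paired analysis was possible because the labels give no replicate numbers and each group is 1 library. The input, at 3.93 reads per bin, and RGM anti-GZF1, at 8.61, limit what can be said of single bins.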

Other observations

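The 99 shared bins with an H3K27ac value below 0.5 had an anti-FLAG median of 1.68 (quartiles 1.07 and 2.45). Over all 1115 shared bins it was 1.12 (1.05 and 1.23). The anti-GZF1 median of the 99 bins was 1.16, against 1.30 over all shared bins. Anti-FLAG and H3K27ac values had a Spearman rho of −0.06 over the shared bins. In the 136 bins at an anti-FLAG value of 2 or more it was 0.28. By chromosome, shared bins were densest on chromosome 19, at 0.901 per 1000 kept bins (48 bins), and sparsest on chromosome 5, at 0.324 (43 bins). Anti-FLAG only bins were densest on chromosome 10, at 0.442 per 1000 (49 bins), and sparsest on chromosome 17, at 0.131 (11 bins).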
